A study of Mus musculus with 6 samples.

Results

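The collagen genes are the 44 of 53647 genes in the count tables whose symbol reads Col, a number, a and a number, so the name alone chose them and no measured value did. By structure they comprise 11 chains of fibrillar collagens, 6 of the basement membrane network, 6 of beaded filaments, 9 of fibril-associated collagens, 4 of transmembrane collagens, 3 of short-chain networks, 2 multiplexins, 1 anchoring fibril chain and 2 others. Each was followed through 5 cell types of the proximal pulmonary artery (PA) of C57BL/6J wild-type mice by single-cell RNA sequencing. The libraries came from main PAs digested with collagenase and elastase and carried 3' tags with unique molecular identifiers (UMIs, each counting 1 captured RNA molecule). Young libraries were from 3 months of age (young 1, young 2). Old libraries were from 20 (old 1), 24 (old 2), 28 (old 3) and 27 months (old 4). Nothing in the labels says whether a library pooled animals, but the study's text counts more young mice than there are young libraries here. A young library may hold more than 1 animal, or a young mouse may have no library here, and the labels do not tell which. The study used both sexes, sex was not a term in any fit, and the spread between libraries is the only error that the tests below measure.

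Collagens are built from 3 chains wound into a triple helix, and each gene codes for 1 chain. Fibrillar chains such as Col1a1, Col1a2 and Col3a1 bundle into the cables that bear load in the adventitia and media of arteries. Type IV chains, in contrast, assemble into the sheets of basement membrane under endothelium and around smooth muscle. Smaller classes decorate fibrils (fibril-associated), link them to cells and basement membranes (beaded filaments of type VI) or carry a fragment with anti-angiogenic activity (Col18a1, the source of endostatin).

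Cells were grouped by markers with all collagens left out of the clustering, and a type is called X-like here because its name rests on markers alone. Of 15409 cells, 10134 fell into 18 clusters of the 5 types. The 2 fibroblast-like clusters had 12 of 12 markers raised, the 2 mesothelial-like clusters 9 of 9, and the other clusters at least 8 of the 10 smooth muscle, 10 endothelial or 11 macrophage markers. Library totals ran from 6355125 to 50436562 UMIs, and the young side is thin, with 90 and 29 fibroblast-like cells (79223 and 20929 UMIs) against 129 to 819 in the old libraries. Smooth muscle-like cells numbered 25 and 36 in the young libraries. Depth differed as well: the median UMIs per fibroblast-like cell were 857 and 663 in young 1 and young 2. In old 1 to old 4 they were 2807, 846, 6322 and 5719. Most young cells of each type sat in 1 cluster that held fewer of the old cells. Cluster 16 held 59 of 61 young smooth muscle-like cells but 8.77% of the old ones, and cluster 11 held 113 of 119 young fibroblast-like cells but 25.1% of the old ones.

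Some libraries stood apart from the rest. The 10 smooth muscle-like cells of old 2 went against their name: their summed smooth muscle markers reached 5224 CPM (counts scaled to a common total) where the other libraries had 33474.5 to 58656, and their airway epithelial markers 252631 where the others had 144 to 4109. They held 11 collagen UMIs, so several of the smooth muscle means, counts and shares that follow are also given without old 2. The other smooth muscle values include it unless stated. Young 1, young 2 and old 2 also shared 130 to 213 cell barcodes per pair, of which 4 to 12 were in the 5 types, while no other pair shared more than 4. Both young libraries belong to this set and old 2 is its only old one, so age and the set cannot be fully told apart. Free RNA, taken from barcodes with at most 100 UMIs, was 0.0872% to 0.224% collagen by library.

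Collagen RNA was most abundant in fibroblast-like cells in every library that had the types compared. It took 0.925% of UMIs in young 1, 1.35% in young 2 and 0.637%, 0.838%, 1.13% and 0.793% in old 1 to old 4. Smooth muscle-like cells followed with 0.715% and 0.443% in the young and 0.415%, 0.0833%, 0.583% and 0.627% in the old libraries, the lowest of them being the doubtful sum of old 2. Mesothelial-like cells, which cover the outside of the vessel and lung, gave 0.367% to 0.484% over 5 libraries, and young 2 was left out for holding 9 such cells.

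**Figure D1:**
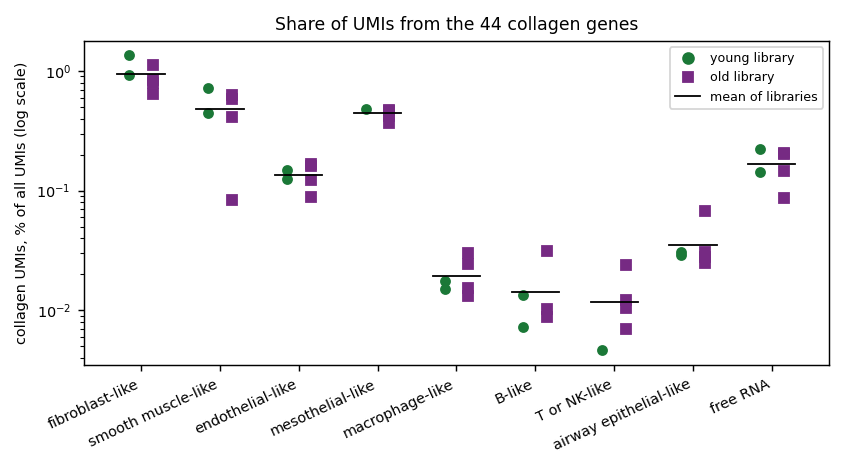
Percent of UMIs that are collagen (vertical axis, log scale) in the 5 cell types, 3 other cell types and free RNA, 1 point per library (young circles, old squares) with a line at the mean. Fibroblast-like cells sit between 0.637% and 1.35%, endothelial-like cells between 0.0892% and 0.166%, and macrophage-like cells at no more than 0.0299%.

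Endothelial-like cells carried 0.135% ± 0.0288 (SD, n = 6) and macrophage-like cells 0.0193% ± 0.00646 (SD, n = 6). For comparison, airway epithelial-like cells held 0.0250% to 0.0675% and B cell-like cells 0.00722% to 0.0315%, levels that serve as the background for cells with little collagen of their own. All 6 endothelial-like sums were above the airway and B cell-like ranges but lay within the range of the free RNA, whereas the macrophage-like range of 0.0133% to 0.0299% lay within the B cell-like one. Fibroblast-like cells exceeded smooth muscle-like cells by 0.467 percentage points ± 0.315 (SD of the paired differences), and did so in 6 of 6 libraries (exact paired permutation test, two-sided, p = 0.0313, the smallest that 6 pairs allow, adjusted p = 0.0684 over 35 comparisons). Without old 2 the difference was 0.409 points, and the 5 pairs left allow no exact p below 0.0625. Against endothelial-like and macrophage-like cells the differences were 0.810 and 0.925 points, again in 6 of 6 libraries with the same exact p. Against mesothelial-like cells the difference was 0.422 points in 5 of 5 libraries, where 5 pairs allow no exact p below 0.0625.

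The mix of collagen classes also differed between types. In fibroblast-like cells fibrillar chains made up 63.1% ± 3.95 of collagen UMIs (SD, n = 6), fibril-associated chains 16.4% ± 3.52, beaded filament chains 11.0% ± 2.22 and basement membrane chains 6.61% ± 2.40. Smooth muscle-like cells divided theirs between fibrillar chains (38.2% ± 14.4), basement membrane chains (30.3% ± 12.5) and multiplexins (16.6% ± 4.08). Without old 2 these were 43.99% ± 2.10, 25.4% ± 4.43 and 16.3% ± 4.48 (SD, n = 5). Endothelial-like cells held 37.9% ± 8.46 basement membrane and 37.1% ± 5.14 fibrillar chains, with transmembrane (7.80% ± 3.46) and multiplexin chains (7.76% ± 4.81) behind them. Mesothelial-like cells resembled fibroblast-like cells in their fibrillar share, 61.6% ± 7.91 (SD, n = 5), and the paired difference of 0.597 points ± 9.23 had either sign.

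Fibroblast-like cells had a larger fibrillar share than smooth muscle-like cells by 24.97 percentage points ± 16.1 and a smaller basement membrane share by 23.7 points ± 11.5, each in 6 of 6 libraries (exact paired p = 0.0313, adjusted p = 0.0684). Leaving out old 2 brought these to 18.7 and 19.1 points, over 5 pairs that allow no exact p below 0.0625. The multiplexin share was lower in fibroblast-like than in smooth muscle-like cells in 6 of 6 libraries, with means of 1.51% and 16.6%. Smooth muscle-like and endothelial-like cells could not be told apart by their fibrillar share (difference 1.12 points ± 15.4, exact paired p = 0.844). That difference became 6.996 points without old 2, positive in the other 5 libraries.

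**Figure D2:**
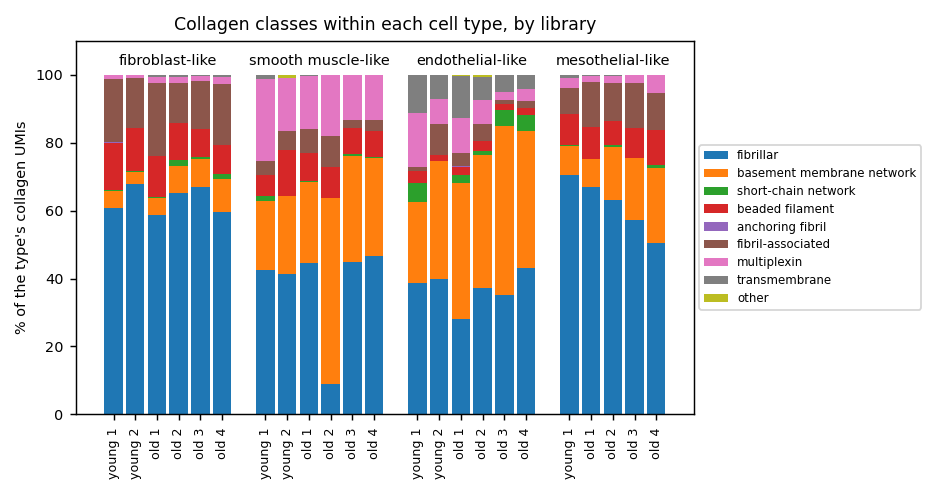
Percent of collagen UMIs (vertical axis) that falls to each structural class, 1 stacked bar per library, in 4 types of cells (fibroblast-like, then smooth muscle-, endothelial- and last mesothelial-like). Fibrillar chains average 63.1% and 61.6% in the first and last of these, and the smooth muscle-like bar of old 2, with 9.09% fibrillar chains, rests on 11 UMIs.

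All 44 genes had at least 1 UMI in the 5 types, but the counts were very uneven. The counts were below 50 for 10 members, and 17 members reached a mean of 100 CPM in some type. Of the 34 with at least 50 UMIs, mean CPM was highest in fibroblast-like cells for 14, in smooth muscle-like cells for 10, in mesothelial-like cells for 5, in endothelial-like cells for 4 and in macrophage-like cells for 1, and the count for smooth muscle-like cells was 10 without old 2 as well. A 3' tag counts each molecule once whatever its length, so CPM of different genes are set side by side here with no length correction.

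**Figure D3:**
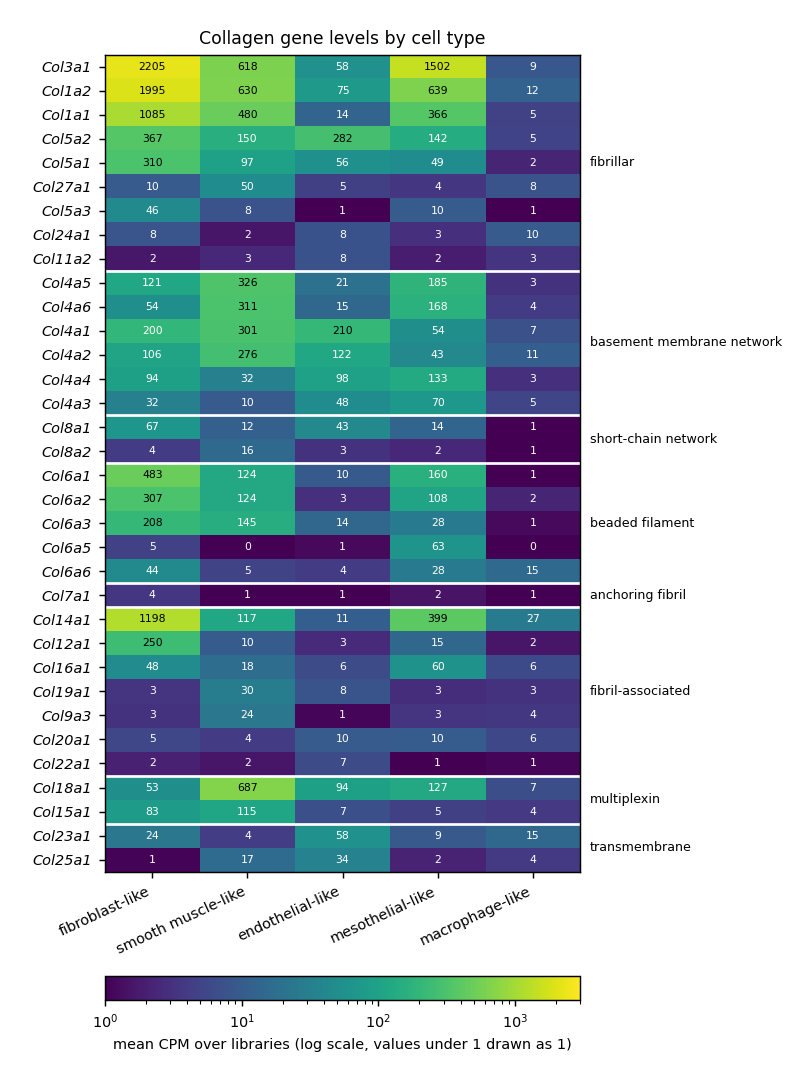
Mean CPM over libraries of the 34 collagen genes with at least 50 UMIs (rows, by structural class) in the 5 cell types (columns), printed in each cell and shown on a log colour scale. Col3a1, Col1a2 and Col1a1 reach 2205, 1995 and 1085 CPM in fibroblast-like cells, while Col18a1 peaks at 687 CPM in smooth muscle-like cells.

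Col3a1 and Col1a2, the chain of type III and the second chain of type I collagen, led the fibroblast-like cells. Col3a1 stood at 2108 and 3631 CPM in young 1 and young 2 and at 1124, 2284, 2862 and 1219 CPM in old 1 to old 4. Col1a2 stood at 1704 and 2628 CPM in the young and at 1422, 1575, 2441 and 2204 CPM in the old libraries. For both genes the young 2 sum of 29 cells was the highest and old 1 the lowest, and the age groups overlapped. Col14a1, a fibril-associated collagen of fibril surfaces, came next with 1086 and 1433 CPM in the young and 1204, 783, 1411 and 1272 CPM in the old libraries. Col1a1, the major chain of type I collagen, had 1149 and 1577 CPM against 712, 880.4, 1401 and 789 CPM. Col6a1, a chain of the beaded filaments between cells and fibrils, had 593 and 956 CPM against 279, 411, 372 and 286 CPM, with both young libraries above all old ones.

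The 300 bases around the start sites of the 2 most abundant members are shown because these genes lead 2 cell types together. Sequences are those of RefSeq on GRCm38.p6, whose tables hold a start window for 35 of the 44 genes, and Col1a1, Col14a1, Col5a2 and Col12a1 are among those without an entry. Capitals mark, on either strand, the letters CCAAT of the CAAT box, the letters TATAAA of the TATA box and the letters GGGCGG of the GC box, and no match overlaps another here. Col1a2 lies on chromosome 6 from 4505618 to 4541543 and Col3a1 on chromosome 1 from 45311538 to 45349706, and both windows run from 250 bases before to 50 bases after the annotated start.
Col1a2, chr6:4505368-4505667, plus strand: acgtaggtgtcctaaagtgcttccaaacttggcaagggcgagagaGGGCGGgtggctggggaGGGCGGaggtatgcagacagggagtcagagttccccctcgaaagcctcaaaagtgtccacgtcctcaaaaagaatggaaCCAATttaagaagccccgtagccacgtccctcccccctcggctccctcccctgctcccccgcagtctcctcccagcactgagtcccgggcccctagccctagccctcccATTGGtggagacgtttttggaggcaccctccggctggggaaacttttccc
Col3a1, chr1:45311288-45311587, plus strand: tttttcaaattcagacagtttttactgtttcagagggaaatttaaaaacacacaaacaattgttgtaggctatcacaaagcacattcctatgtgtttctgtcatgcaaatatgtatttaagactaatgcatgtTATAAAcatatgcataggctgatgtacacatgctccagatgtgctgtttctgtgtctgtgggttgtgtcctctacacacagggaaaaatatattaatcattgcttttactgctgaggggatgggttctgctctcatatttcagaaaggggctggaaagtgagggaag
The Col1a2 window holds CCAAT 2 times and GGGCGG 2 times, and the Col3a1 window holds TATAAA 1 time and neither of the others. Over the RefSeq table CCAAT occurs in 37.9% of 27025 windows of this length (12 of 35 collagens), TATAAA in 14.2% (5 of 35) and GGGCGG in 35.9% (22 of 35). A match is a run of letters and not a site of binding.

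Fibroblast-like and smooth muscle-like cells, the makers of adventitial and medial matrix, were compared within libraries by edgeR. Of 25 collagens tested, 16 were higher in fibroblast-like cells and 5 in smooth muscle-like cells (adjusted p below 0.05), while 19.9% and 17.0% of all 9940 genes tested passed in these directions. The median difference of the collagens was 1.22 on the log2 scale against 0.04 for all genes. Col12a1, which like Col14a1 sits on fibril surfaces, was higher by 4.30 ± 0.29 (SE) on the log2 scale (adjusted p = 2.06e-48), and Col5a3, a minor fibrillar chain, by 4.27 ± 0.32 (adjusted p = 3.90e-38). Over the alternative settings Col12a1 ran from 3.79 to 4.61 and Col5a3 from 3.89 to 4.49. Their largest adjusted p there was 8.58e-05 and 1.04e-05 (edgeR or DESeq2). Col14a1 was higher by 3.504, Col1a2 and Col3a1 by 1.79 each and Col1a1 by 1.22. The chains of type VI split, with Col6a1 and Col6a2 higher by 1.56 and 1.00 and Col6a3 at 0.48 (adjusted p = 0.249).

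By mean CPM, smooth muscle-like cells were led by Col18a1, a multiplexin of basement membranes, at 687 CPM (794 CPM without old 2). Col18a1 stood at 1413 and 569.5 CPM in young 1 and young 2 and at 609, 151, 684 and 697 CPM in old 1 to old 4. The value of 151 CPM came from 2 UMIs in the doubtful sum of old 2, and the remaining 5 libraries held 569.5 to 1413 CPM. Col1a2 had 618 and 407 CPM in the young and 577, 0, 927 and 1250.4 CPM in the old libraries. Col3a1 had 1104 and 529 CPM against 676, 0, 692 and 709 CPM, so that old 2 held no UMI of either gene. Col1a1 had 706 and 692 CPM against 361, 75.7, 518 and 527 CPM. Col4a5, a basement membrane chain, had 397 and 366 CPM against 209, 75.7, 465 and 446 CPM. For each of these 5 genes the value of old 2 was the lowest of the 6.

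Against fibroblast-like cells Col18a1 was the most shifted collagen toward smooth muscle, at -3.37 ± 0.41 (SE) on the log2 scale (adjusted p = 1.82e-15), and at -3.55 without old 2. Col4a6 followed at -2.47, Col4a2 at -1.41, Col4a5 at -1.32 and Col27a1, a fibrillar chain of cartilage, at -0.63, a call lost in 4 of 12 alternative settings. Toward smooth muscle 2 collagens were called when old 4, the library with 2407 smooth muscle-like cells, was left out, and 6 when old 2 was left out, with 16 higher in fibroblast-like cells. The 12 fibroblast markers summed in smooth muscle-like cells came to 151 to 1218 CPM against 27248 to 41862 CPM in fibroblast-like cells, and their part in the fibrillar levels was not tested.

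In endothelial-like cells the leading collagen was Col5a2, a chain of type V collagen that is built into type I fibrils. It stood at 285 and 274 CPM in the young and at 98.9, 253, 351 and 429.7 CPM in the old libraries, so only old 1 fell well below the rest. Its level in fibroblast-like cells was 367 CPM ± 147 (SD, n = 6), and the difference between these types did not pass (0.38 ± 0.21 on the log2 scale, adjusted p = 0.174). At a depth of 500 UMIs per cell, Col5a2 was seen in 14.1% of endothelial-like cells and 16.1% of fibroblast-like cells (medians of libraries), against 0.220% of macrophage-like cells and 0.191% of airway epithelial-like cells. Its fibril partners did not share this level: Col1a2 and Col1a1 averaged 74.7 and 13.7 CPM in endothelial-like cells. Col5a1, the other main type V chain, was 2.25 lower there than in fibroblast-like cells on the log2 scale. The 12 fibroblast markers summed to 731 to 1939 CPM in endothelial-like cells, and their part in the fibrillar levels was not tested.

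The next endothelial members were type IV chains. Col4a1, which with Col4a2 forms the common basement membrane, had 168 and 91.2 CPM in the young and 153, 211, 370.1 and 268 CPM in the old libraries. Col4a2 had 84.0 and 91.2 CPM against 98.9, 119.5, 208 and 133 CPM. Col4a2 was higher in each old library than in both young ones, which held 5 and 4 of its UMIs. For Col4a1 old 1 lay between the young values. Col4a4, a chain of the network known from kidney and lung, had 67.2 and 114 CPM against 56.1, 70.3, 132 and 148 CPM. Col18a1 had 218 and 91.2 CPM against 88.6, 70.3, 37.1 and 57.8 CPM, lower in each old library.

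Of 23 collagens tested between fibroblast-like and endothelial-like cells, 15 were higher in fibroblast-like cells and 1 in endothelial-like cells, where 18.7% and 16.1% of 8969 genes passed. The collagen median was 4.27 on the log2 scale against 0.03 for all genes. Col14a1 (7.13 ± 0.28, SE), Col1a1 (5.89), Col6a2 (5.73) and Col12a1 (5.36) differed most. Col23a1, a transmembrane collagen, was the 1 higher in endothelial-like cells, at -0.90 ± 0.26 (adjusted p = 0.00655), and it was no longer called without old 3. Col4a1, Col4a2, Col4a3 and Col4a4 lay between -0.35 and -0.08 with adjusted p from 0.210 to 0.836, and such p-values do not show equal levels. Free RNA held Col23a1 at 5.20 to 171 CPM by library, beside an endothelial-like mean of 57.9 CPM, and its part in this difference was not tested.

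Smooth muscle-like cells exceeded endothelial-like cells in 14 of 20 collagens tested and were below them in 4, against 17.8% and 19.8% of all 9227 genes. The collagen median was 3.23 on the log2 scale and that of all genes -0.06. Col4a6 (4.93 ± 0.44, SE), Col6a2 (4.85), Col1a1 (4.82), Col15a1 (4.40) and Col4a5 (4.24) led, and Col18a1 was also among them (adjusted p = 6.62e-15). Col23a1 (-2.67), Col4a4 (-1.98), Col8a1 (-1.36) and Col4a3 (-1.28) were higher in endothelial-like cells. Higher in endothelial-like cells were 2 collagens without old 3 and 2 without old 4, and without old 2 the counts were 15 and 4.

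Mesothelial-like cells were led by fibrillar chains, with Col3a1 first as in fibroblast-like cells. In them the 12 fibroblast markers summed to 7067 to 10482.5 CPM, beside 8210 to 11071 CPM for the 9 mesothelial markers. The part of fibroblast RNA in these collagen levels was not tested. Col3a1 stood at 1769 CPM in young 1 and at 1510.1, 1697, 1381 and 1152 CPM in old 1 to old 4, and its highest value was the young one. Col1a2 had 838 CPM against 509, 561, 558 and 730.1 CPM. Col1a1 had 528 CPM against 311, 455, 278 and 258 CPM. The single young value was again the highest for both. Col14a1 had 269 CPM in young 1 against 394, 440.3, 458 and 433 CPM, there the lowest of the 5. Col4a5 had 112 CPM in young 1, within the old range of 57.1, 234, 216 and 306 CPM.

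Compared with fibroblast-like cells, 15 of 25 collagens tested were lower in mesothelial-like cells and 5 were higher, where 12.9% and 16.8% of 10255 genes passed. The collagen median was 1.25 on the log2 scale and the median of all genes -0.08. Col6a5, an additional chain of type VI, was higher in mesothelial-like cells by the widest margin (-5.57 ± 0.46, SE, adjusted p = 6.17e-08). At 500 UMIs per cell it was seen in 2.63% of mesothelial-like cells (median of libraries) and in a median of 0% in the other 4 types. Col4a6 (-1.22), Col18a1 (-1.02), Col4a3 (-0.81) and Col4a4 (-0.51) were also higher there. The Col4a4 call (adjusted p = 0.0399) was lost in 12 of 14 alternative settings, and 3 collagens were called in this direction without old 3 and 3 without old 4. Col3a1 did not pass (0.32 ± 0.17, adjusted p = 0.174), unlike Col1a2 (1.59) and Col1a1 (1.51), and Col4a5 did not pass either (adjusted p = 0.156).

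The chains of type IV collagen ranked differently by type. In smooth muscle-like cells Col4a5, Col4a6, Col4a1 and Col4a2 averaged 326, 311, 301 and 276 CPM, with Col4a3 and Col4a4 at 9.95 and 32.5 CPM. Without old 2 the first 4 were 377, 358, 362 and 285 CPM and the last 2 were 11.9 and 23.8 CPM. In endothelial-like cells Col4a1 (210.2 CPM), Col4a2 (122 CPM) and Col4a4 (98.0 CPM) came first and Col4a5 and Col4a6 last, at 20.6 and 14.9 CPM. Mesothelial-like cells held more Col4a5 (185 CPM), Col4a6 (168 CPM) and Col4a4 (133 CPM) than Col4a1 (54.5 CPM) and Col4a2 (42.8 CPM). Fibroblast-like cells held all 6, from 32.5 CPM for Col4a3 to 199.8 CPM for Col4a1.

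**Figure D4:**
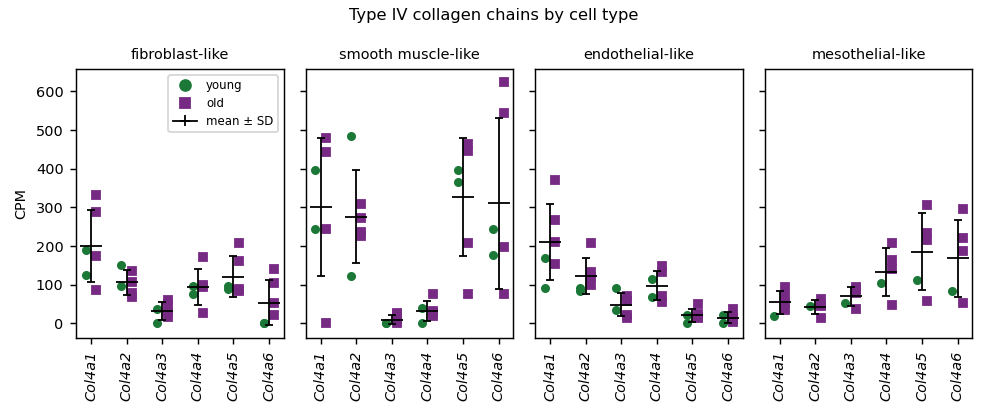
CPM of the 6 type IV chains in 4 cell types, 1 point per library (young circles, old squares), with the mean ± SD of all libraries. Col4a5 and Col4a6 reach means of 326 and 311 CPM in smooth muscle-like cells and 20.6 and 14.9 CPM in endothelial-like cells.

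These 6 genes sit head to head in pairs, Col4a1 with Col4a2 on chromosome 8, Col4a3 with Col4a4 on chromosome 1 and Col4a5 with Col4a6 on chromosome X. In smooth muscle-like cells both chains of the chromosome X pair and both of the chromosome 8 pair averaged 276 to 326 CPM, and both of the chromosome 1 pair at most 32.5 CPM. Start windows of the pairs on chromosomes 8 and X are shown because they display this arrangement. The start sites that RefSeq's windows use for Col4a1 (11198423 to 11312889, minus strand) and Col4a2 (11312805 to 11449287, plus strand) are 21 bases apart, so the windows overlap by 78 bases, which are in capitals in the Col4a2 window. Those of Col4a5 (141475370 to 141689236, plus strand) and Col4a6 (141165403 to 141474095, minus strand) are 1343 bases apart, and capitals in the Col4a1, Col4a5 and Col4a6 windows mark the CAAT box and GC box letters on either strand.
Col4a2, chr8:11312555-11312854, plus strand: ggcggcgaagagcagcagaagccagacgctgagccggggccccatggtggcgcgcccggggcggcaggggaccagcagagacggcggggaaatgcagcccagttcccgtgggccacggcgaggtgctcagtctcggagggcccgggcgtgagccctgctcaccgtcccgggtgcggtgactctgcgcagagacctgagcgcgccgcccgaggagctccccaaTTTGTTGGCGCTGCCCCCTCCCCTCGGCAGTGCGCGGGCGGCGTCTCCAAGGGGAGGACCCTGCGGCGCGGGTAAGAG
Col4a1, chr8:11312777-11313076, minus strand: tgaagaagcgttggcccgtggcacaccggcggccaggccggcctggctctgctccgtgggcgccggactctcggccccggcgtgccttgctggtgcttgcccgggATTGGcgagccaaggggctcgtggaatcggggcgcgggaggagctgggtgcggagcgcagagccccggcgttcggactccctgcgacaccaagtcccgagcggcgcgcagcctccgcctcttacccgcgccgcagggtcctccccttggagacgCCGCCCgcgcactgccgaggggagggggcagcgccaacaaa
Col4a5, chrX:141475169-141475468, plus strand: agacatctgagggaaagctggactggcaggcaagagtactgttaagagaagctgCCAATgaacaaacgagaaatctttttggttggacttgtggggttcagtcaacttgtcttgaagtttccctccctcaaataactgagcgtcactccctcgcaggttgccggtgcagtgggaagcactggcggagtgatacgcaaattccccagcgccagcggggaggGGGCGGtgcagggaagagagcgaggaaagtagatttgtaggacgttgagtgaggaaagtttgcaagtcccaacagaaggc
Col4a6, chrX:141474027-141474326, minus strand: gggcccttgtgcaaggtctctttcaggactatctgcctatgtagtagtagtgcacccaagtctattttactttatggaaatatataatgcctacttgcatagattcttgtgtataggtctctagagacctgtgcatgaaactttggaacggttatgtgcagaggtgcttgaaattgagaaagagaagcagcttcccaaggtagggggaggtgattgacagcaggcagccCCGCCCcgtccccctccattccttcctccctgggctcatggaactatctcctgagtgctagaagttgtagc
The Col4a2 window holds GGGCGG 3 times and CCAAT 1 time and is 73.7% G and C, and the Col4a1 window (74.0%) holds each of them 1 time. The Col4a5 window (52.7% G and C) holds each of these motifs 1 time, and the Col4a6 window (48.3%) holds GGGCGG 1 time.

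Paired chains were also compared by the ratio of their UMIs in a library, taken only where both had at least 10. Col1a1 to Col1a2 ran from 0.358 to 0.674 in fibroblast-like cells (median 0.566, n = 6) and from 0.240 to 0.463 in endothelial-like cells (n = 3). The protein of type I collagen holds more of the first chain than of the second. Col4a1 to Col4a2 ran from 1.54 to 2.02 in endothelial-like cells (n = 4). Col5a1 to Col5a2 was 0.195 to 0.488 in endothelial-like cells (n = 3) and 0.638 to 1.46 in fibroblast-like cells (n = 6), ranges that did not overlap. Ratios of UMIs also carry how well each 3' end was captured.

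Macrophage-like cells held few collagen UMIs. Their 5 leading members were Col14a1 with 17.3 and 16.1 CPM in the young and 23.4, 25.8, 23.3 and 55.4 CPM in the old libraries, and then Col6a6, Col23a1, Col1a2 and Col4a2 with means between 11.0 and 15.2 CPM. Col6a6, a chain of type VI, was at 67.4 CPM in old 1 (23 UMIs) and at 0.623 to 16.1 CPM elsewhere. Col23a1 had 10.8 and 32.1 CPM in the young and 26.4, 15.1, 1.20 and 3.74 CPM in the old libraries. Col1a2 had 2.17 and 16.1 CPM against 8.79, 4.31, 11.7 and 30.5 CPM, and Col4a2 had 6.504 and 0 CPM against 29.3, 10.8, 7.77 and 11.8 CPM. Against these cells 21 of 22 collagens tested were higher in fibroblast-like cells and 0 lower, where 18.6% and 24.4% of 9556 genes passed, with a collagen median of 5.30 on the log2 scale. Of all calls in this comparison 43.4% were higher in fibroblast-like cells, and 53.6% were without TMM scaling. At 500 UMIs per cell Col1a2 was seen in 0.654% of macrophage-like cells, 0.252% of B cell-like cells and 58.6% of fibroblast-like cells (medians of libraries).

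The machinery that modifies, processes and cross-links collagen was followed through 36 genes, of which the 3 with the smallest p-values in each comparison are named. Between fibroblast-like and smooth muscle-like cells 15 of 30 tested were higher and 2 lower in fibroblast-like cells, with Pcolce2, an enhancer of procollagen cleavage, at 4.76, the cross-linking oxidase Loxl2 at 2.26 and the prolyl hydroxylase P3h2 at -3.73 on the log2 scale. Against endothelial-like cells 19 of 29 were higher and 3 lower, with Pcolce2 (7.03), Loxl1 (5.81) and Pcolce (5.63). Against macrophage-like cells 22 of 29 were higher and 3 lower, with Loxl1 (7.29), the collagen receptor Ddr2 (6.52) and the procollagen protease Bmp1 (6.51). Against mesothelial-like cells 16 of 30 were higher and 3 lower, with Pcolce2 (8.55), the protease Tll1 (-5.85) and Ddr2 (2.37). Smooth muscle-like cells exceeded endothelial-like cells in 12 of 28 and were below them in 1, with Loxl1 (3.98), the propeptidase Adamts2 (3.47) and the collagen uptake receptor Mrc2 (3.81). The background of all genes is that given for each comparison above.

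Old and young libraries were then compared in each type, the question of the study being how the PA wall changes with age. No collagen passed an adjusted p of 0.05 with edgeR in any of the 5 types, nor with DESeq2, the mesothelial-like type having a single young library. Over all genes 0.0446% passed in fibroblast-like cells and 0.124% in smooth muscle-like cells. In mesothelial-like cells 0.0233% passed, and 0.0% in endothelial-like and 0.0% in macrophage-like cells. A floor of 3 UMIs over the young group stands for 29.95 CPM in fibroblast-like cells, and for 29.0 CPM in the endothelial-like and 63.5 CPM in the smooth muscle-like cells, so a lower level could not be told from 0 in the young sums. In simulated counts, these fits recovered 2.5% of genes changed 4-fold in fibroblast-like and 0% in smooth muscle-like cells. In endothelial-like and macrophage-like cells they recovered 4% and 5%. Of genes changed 16-fold they recovered 86% in fibroblast-like, 51% in smooth muscle-like, 84% in endothelial-like and 89% in macrophage-like cells. Mesothelial-like cells were not simulated. Given the low recovery at 4-fold, the lack of calls does not show equal levels. A positive log2 difference between ages is higher in old libraries.

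In fibroblast-like cells 22 collagens were tested and 4 had an unadjusted p below 0.05, where 6.23% of 6722 genes did. The collagen median was -0.05 and the median of all genes 0.19 on the log2 scale, with 10 collagens above 0 and 12 below. Col12a1 stood at 568 and 478 CPM in young 1 and young 2 and at 101, 166, 119.7 and 68.3 CPM in old 1 to old 4. Every old library was below both young ones, in sums of 45 and 10 UMIs on the young side. Its difference was -2.18 ± 0.49 (SE) on the log2 scale (edgeR, adjusted p = 0.349). Over the alternatives it ranged from -2.52 to -1.46 with adjusted p of at least 0.0952, and it was -2.04 within cluster 11 alone and -1.58 among the 3 libraries that share barcodes.

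Col4a6 was at 0 UMIs in both young fibroblast-like sums and at 21.3, 53.8, 105 and 142 CPM in the old ones. It thus passed the gene filter through old libraries alone and could only come out higher with age. Set against a floor of 3 UMIs over the young group, its pooled old level was at least 3.77-fold higher (adjusted p = 0.737), and the fitted fold is not given because the young counts are all 0. It passed in 1 setting, without a filter on low genes (adjusted p = 0.0496). In the same sums the 7 pericyte markers summed to 12.6 to 47.8 CPM in the young, where 5 were at 0, and 97.8 to 370.1 CPM in the old libraries, and the 9 mesothelial markers were 47.8 to 139 and 7.97 to 39.1 CPM. The 10 smooth muscle markers were 47.8 to 75.7 CPM in the young, where 7 were at 0, and 48.9 to 1159 CPM in the old libraries. The 5 erythroid markers were 114 to 382 CPM in the young and 20.8 to 31439 CPM in the old libraries. The part of these marker lists in these differences was not tested. Col5a3 had 114 and 47.8 CPM against 26.6, 34.2, 42.1 and 12.9 CPM, lower in every old library at -1.78 ± 0.70 (adjusted p = 0.737), but -0.41 without young 1, which held 9 of its 10 young UMIs. Col6a1, whose values are given above, differed by -1.06 ± 0.43 (adjusted p = 0.737).

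**Figure D5:**
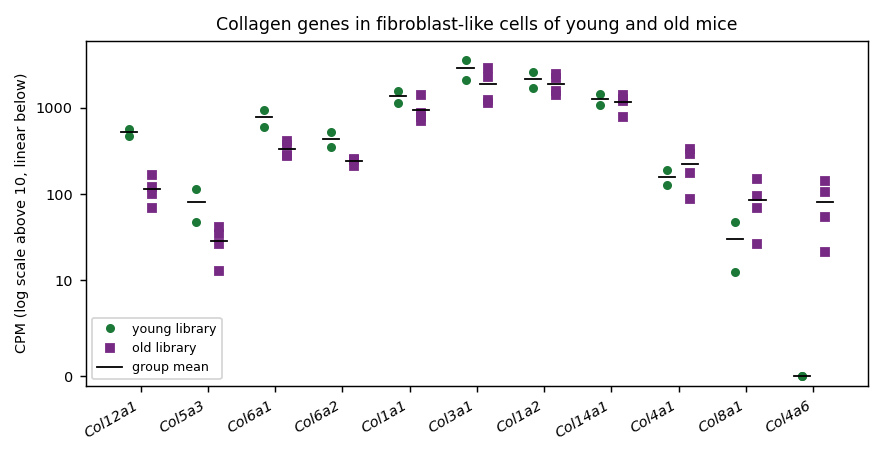
CPM of 11 collagen genes in fibroblast-like cells (vertical axis, log scale above 10 and linear below), 1 point per library (young circles, old squares) with a line at each group mean. Col12a1 lies at 478 to 568 CPM in the young and 68.3 to 166 CPM in the old libraries, while the ranges of Col3a1 and Col1a2 overlap.

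Col8a1, a short-chain network collagen of vessel walls, had 12.6 and 47.8 CPM in young fibroblast-like sums and 26.6, 152, 69.0 and 95.3 CPM in old ones. The groups overlapped, and with 2 young UMIs the pooled ratio of old to young was 3.91 (95% exact counting interval 1.08 to 32.3), with an adjusted p of 0.822 in edgeR. Col4a1 had 126 and 191 CPM against 87.7, 289, 331 and 174 CPM and a difference of 0.60 that did not pass. In all, every old library was higher in 2 of the 22 collagens (Col4a6, Col23a1) and lower in 4 (Col12a1, Col5a3, Col6a1, Col6a2), where 17.3% and 7.29% of all genes did so. Both of the former rest on young sums of 0 and 1 UMI and so passed the gene filter through old libraries alone. Of their old values, 1 of Col4a6 (21.3 CPM) and 3 of Col23a1 (22.9 to 29.3 CPM) lie under the floor of 29.95 CPM.

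By class, the beaded filament chains took 0.0823% ± 0.0122 of UMIs in old fibroblast-like sums (SD, n = 4) and 0.1497% ± 0.0315 in young ones (SD, n = 2), lower in every old library. Fibril-associated chains took 0.135% ± 0.0260 against 0.184% ± 0.0162, also lower in every old library. Transmembrane chains were higher in every old library, at 0.00399%, 0.00440%, 0.00261% and 0.00544% in old 1 to old 4 against 0.00126% and 0% in young 1 and young 2, which held 1 UMI between them. For the first 2 classes the exact permutation test gave p = 0.133, the smallest that 2 against 4 libraries allow, and an adjusted p of 0.875 over 35 comparisons. All collagens together took 0.849% ± 0.205 against 1.14% ± 0.299 (exact p = 0.267), with overlapping groups. Basement membrane chains took 0.0672% ± 0.0262 against 0.0479% ± 0.000131 (exact p = 0.4), old 1 lying below the young and the other 3 above. As percent of collagen UMIs, short-chain, multiplexin, transmembrane and other chains were higher in every old library and beaded filament chains lower (exact permutation p = 0.133 and adjusted p = 0.24 over the 9 classes for each). Young libraries held 0.273% to 0.355% short-chain, 0% to 0.136% transmembrane and 0% other chains, resting on few or no UMIs. The old percent of other chains went down to 0.00504%, a level that the young sums could not show. The fibril-associated percent was 16.4% in old and 16.6% in young libraries (exact permutation p = 0.8). Col1a1 to Col1a2 was 0.674 and 0.6 in the young and 0.501, 0.559, 0.574 and 0.358 in the old libraries, lower in each old one (exact permutation p = 0.133, adjusted p = 0.4).

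In smooth muscle-like cells 17 collagens were tested and 0 had an unadjusted p below 0.05, where 5.91% of 7230 genes did. The collagen median was 0.19 against 0.49 for all genes, and the latter was 0.12 without TMM scaling, so values here are read relative to that shift. Every old library was lower in 2 collagens, Col1a1 and Col6a1, and higher in 0, where 8.89% and 8.84% of genes did so. Both were also lower in the 3 old libraries other than old 2, but Col6a1 had only 4 UMIs in each young sum. In the fit without old 2 the differences were -0.19 for Col1a1 and 0.05 for Col6a1. Col15a1, a multiplexin of basement membrane zones, had the smallest p (-1.01 ± 0.84, adjusted p = 0.893), and Col4a1 differed by 0.39. Without old 2, Col15a1 stood at -0.91 and Col4a1 at 0.67, the collagen median was 0.30 against 0.53 for all genes, and 1 collagen, Col4a6, had an unadjusted p below 0.05 (edgeR, adjusted p = 0.572), where 8.56% of 6744 genes did. The young cells were those of cluster 16, and most old cells lay in other clusters.

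Col1a1 to Col1a2 in smooth muscle-like cells was 1.14 and 1.70 in young samples and 0.627, 0.559 and 0.421 in old 1, old 3 and old 4. The old values were all below the young ones (exact permutation p = 0.2, the smallest that 2 against 3 libraries allow, adjusted p = 0.4). The young ratios rest on 16 and 17 UMIs of Col1a1 and on 14 and 10 of Col1a2, where 10 is the least allowed. Collagen took 0.427% ± 0.247 of UMIs in old sums (SD, n = 4) and 0.579% ± 0.192 in young ones (SD, n = 2), a difference of -0.152 points that was -0.0373 points without old 2.

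In endothelial-like cells 10 collagens were tested and 1 had an unadjusted p below 0.05, where 5.76% of 5888 genes did. This was Col18a1, lower in every old library at the levels given above (-1.32 ± 0.58, adjusted p = 0.862), and at -0.48 without young 1. Col4a2 was higher in every old library (0.67 ± 0.54, adjusted p = 0.929), but its young sums held only 5 and 4 UMIs. Col4a1 differed by 0.90 ± 0.53 (adjusted p = 0.907), but by -0.36 within cluster 14, which held 137 of 148 young endothelial-like cells. In these sums the 10 smooth muscle markers ran from 50.4 to 342 CPM in the young, where 8 were at 0, and from 211 to 1750 CPM in the old libraries, and their part was not tested. Every old library was higher in 1 and lower in 1 of the 10 collagens, where 11.9% and 7.71% of all genes did so. Collagen took 0.135% ± 0.0360 of UMIs in old and 0.137% ± 0.0158 in young sums (exact permutation p = 1).

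In macrophage-like cells Col14a1 was the 1 collagen that passed the expression filter. Both young libraries had it in under 5% of cells (young 2 in 1.49%). It thus passed through old libraries alone, which favours higher old values. Col14a1 was higher in every old library (0.82 ± 0.62, adjusted p = 0.811), as were 10.6% of 5890 genes, where 6.35% were lower in every old library and 5.31% had an unadjusted p below 0.05. In mesothelial-like cells 21 were tested with young 1 as the only young library, so no age difference there has a young replicate. The spread in that fit came from the old libraries alone, and young 1 is assumed to vary like them. Col4a1 (19.4 CPM in young 1 and 51.9, 35.5, 71.5 and 94.2 CPM in old 1 to old 4) and Col6a5 (25.9 CPM and 51.9, 71.0, 93.3 and 75.3 CPM) were the 2 with an unadjusted p below 0.05, as 4.93% of 8575 genes had (edgeR, differences 1.62 and 1.37, adjusted p = 0.936 and 0.970). In young 1 Col4a1 and Col6a5 were seen in 2.27% and 2.78% of cells, under the 5% of the gene filter. They thus passed it through old libraries alone, which favours higher old values. All 4 old libraries were higher than young 1 in 4 of the 21 collagens and lower in 7, against 20.4% and 13.0% of all genes.

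Of the 36 genes of collagen processing, 28 were tested between old and young in fibroblast-like cells and 28 in mesothelial-like cells. For smooth muscle-like cells the number tested was 27, while 18 were tested in endothelial-like and 8 in macrophage-like cells. By edgeR 0 of those tested passed in any type, and the background of all genes is that given for each type above. An unadjusted p below 0.05 was seen for 0 in fibroblast-like cells and for 1 in each of the other 4 types. In fibroblast-like cells the smallest p-values were those of the cross-linking oxidase Loxl3, with 1 young UMI and a pooled ratio of 5.37 (95% exact counting interval 0.960 to 213, adjusted p = 0.793), the propeptidase Adamts3 (-1.99, adjusted p = 0.822) and Bmp1 (-0.83, adjusted p = 0.822). In smooth muscle-like cells P4ha2 (adjusted p = 0.782), Loxl3 and Fkbp14 had 0 young UMIs, and their old levels were under the floor of 3 young UMIs. In endothelial-like cells Plod2, a lysyl hydroxylase, had 0 young UMIs and was at least 1.63-fold higher (adjusted p = 0.862), with P4ha1 (1.08) and P3h3 (-0.98) next. Genes with 0 young UMIs, such as Plod2, passed the gene filter through old libraries alone and could only come out higher with age. Loxl3 in fibroblast-like cells, with 1 young UMI, also passed through old libraries alone. In macrophage-like cells Plod3 (-0.92, adjusted p = 0.808), P4ha1 (1.11) and P3h2 (1.41) had the smallest p-values, and in mesothelial-like cells Adamts2 (-1.29, adjusted p = 0.899), P3h3 (-1.10) and Pcolce (-0.96).

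Between old and young, 25 of the 44 members were tested in at least 1 type and 19 in none. The members with fewer than 50 UMIs over the 5 types were Col10a1, Col6a4, Col17a1, Col26a1, Col2a1, Col9a2, Col9a1, Col11a1, Col28a1 and Col13a1, which include the chains of cartilage collagens (Col2a1, Col9a1, Col9a2, Col10a1, Col11a1) and the hemidesmosome collagen Col17a1. Col7a1, Col9a3, Col8a2, Col24a1, Col11a2, Col22a1, Col25a1, Col6a5, Col5a3, Col20a1 and Col6a6 had 52 to 944 UMIs. Col19a1, a fibril-associated chain, had 1534 UMIs with a mean of 29.9 CPM in smooth muscle-like cells (35.9 CPM without old 2) and at most 8.02 CPM in the other 4 types. Col16a1, also fibril-associated, averaged 48.0 CPM in fibroblast-like and 59.6 CPM in mesothelial-like cells.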

How the data were processed

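The deposited files hold raw UMI counts per gene and barcode (per the labels and the study's methods, 10x 3' v3.1 libraries trimmed with cutadapt and counted by STARsolo with STAR against GRCm38.p6, versions not given in the sources used here), with no filter on barcodes. The study names GENCODE M22, but 0.0652% of the versioned identifiers match the release used as reference here and 97.1% match without version, so positions are RefSeq's for GRCm38.p6. Counts of 3' tags are per molecule and not per length, and antisense or overlapping genes were not separated here.

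A barcode was kept from 500 UMIs and 300 genes upward if mitochondrial UMIs made up no more than 20% (15622 barcodes), and 213 called doublets were then removed. Cells were clustered without collagens (scanpy 1.11.5, 2000 variable genes, 40 components, 15 neighbours, Leiden resolution 1.0, 36 clusters). Naming a cluster took 40% or more of a type's markers raised, and this limit was chosen with the clusters in view. Counts were summed per library and type (at least 10 cells). A gene entered the tests if 3 or more libraries had a UMI of it in over 5% of the cells, and the tests used edgeR 4.0.16 (robust quasi-likelihood, TMM, Benjamini-Hochberg over all genes, R 4.3.3), with library as a block between types. DESeq2 1.42.0 was an alternative, and the scripts were tested on simulated data. Shares and log2 ratios were compared by exact permutation tests (scipy 1.17.1). Two-sided tests were used throughout. Shares of cells with a UMI were taken after each cell was thinned to 500 UMIs.

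Genes are named by rule: the 5 highest members of each type, Col8a1 and Col4a1, every member with an unadjusted p below 0.05 and the 3 processing genes with the smallest p. Members, lists and tests were chosen with earlier results of these data known. Intervals and floors cover counting error only.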

Additional observations from a re-analysis of the deposited data

Results flagged for a closer look

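In 4 of 43 groups of 4 old libraries 1 library lay far from the others, where chance gives about 1 in 20, or 2.15. In smooth muscle-like cells Col18a1 was at 151 CPM and Col3a1 at 0 CPM in old 2, the sum of 10 cells with few smooth muscle markers, while the other old libraries held 609 to 697 and 676 to 709 CPM. In macrophage-like cells Col14a1 was at 55.4 CPM in old 4, against 23.3 to 25.8 CPM in the other old libraries, and Col6a6 was at 67.4 CPM in old 1, against 0.623 to 2.99 CPM.

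Outside the 5 types, Col17a1, the hemidesmosome collagen of epithelia, reached 35.8 CPM in airway epithelial-like cells. An unnamed cluster of 355 cells, nearly all from young 1 and young 2, held Col11a1 at 82.3 CPM, Col19a1 at 175 CPM, Col23a1 at 226 CPM and Col26a1 at 92.6 CPM, above the highest of the 5 types. The free RNA of young 1 held these 4 genes at 64.8, 118, 171 and 72.4 CPM and that of young 2 at 30.5, 76.7, 74.8 and 38.4 CPM, and its part in the levels of this cluster was not tested.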

How the results depend on the processing

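Old and young libraries could not be paired because the labels give no replicate numbers, and library numbers here follow the order of deposit. Between types library was a block in every fit. Of the recomputed main results 584 kept their direction and their side of the threshold, or for counts and free RNA their size, 23 moved and 17 reversed, and of single-gene values 903 kept theirs, 27 lost and 1 gained a call and 2 reversed. The causes were not tested. The settings by single cluster, shared barcodes and thinned cells were chosen after seeing the data.

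Without a gene filter 1 collagen, Col4a6, was called higher with age in fibroblast-like cells. After thinning to 500 UMIs 9 collagens were called higher in fibroblast-like than in smooth muscle-like cells. The thinned fit tested 2785 genes where the main fit tested 9940. Each collagen called in the main fit and still tested kept its call. In the opposite direction 2 to 6 were called when 1 library was left out. Higher in endothelial-like than fibroblast-like cells were 2 with filterByExpr, 0 at 1000 UMIs, 0 after thinning and 0 to 1 without 1 library. Higher in mesothelial-like cells were 1 after thinning and 3 to 4 without 1 library, and higher in endothelial-like than smooth muscle-like cells 1 and 2 to 4. Thinning cut the genes tested in these comparisons from 8969 to 2740, from 10255 to 2631 and from 9227 to 2864. Col18a1 and Col4a4 lost their mesothelial call on thinning, while the other calls missing there belonged to collagens no longer tested. Over all genes the 3673 calls between fibroblast-like and smooth muscle-like cells (37.0% of 9940 tested) became 1546 without old 3 (19.0% of 8140) and 1590 without old 4 (19.7% of 8055). After thinning they were 1188, or 42.7% of the 2785 genes still tested. Between ages 3 calls of 6722 genes in fibroblast-like cells became 23 of 24267 without a gene filter and 0 of 6173 with filterByExpr. In smooth muscle-like cells 9 of 7230 became 38 of 27589 without a filter, 15 without TMM, 0 with DESeq2 and 0 without old 2. Without a filter there were 8 calls in endothelial-like, 37 in macrophage-like and 46 in mesothelial-like cells.

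Col4a1 between ages turned to -13.25 in smooth muscle-like cells with the shared-barcode set as covariate, where old 2 held 0 UMIs of it, and to -0.36 in endothelial-like cells of cluster 14. The endothelial-like collagen share (old minus young) was 0.00215 points with doublets kept and -0.0132 to 0.0131 without 1 library, and the macrophage-like one -0.000919 in the shared-barcode libraries. The fibrillar percent in fibroblast-like cells was 1.82 points higher in old libraries at 1000 UMIs, 1.01 in the shared-barcode libraries and -5.13 to 1.89 without 1 library, and the fibril-associated percent -2.34 to 1.81. Smooth muscle-like minus endothelial-like fibrillar percent ran from -1.94 to 6.996 without 1 library. Log2 ratios between ages without 1 library ran from -0.28 to 0.047 (Col3a1 to Col1a1, fibroblast-like), -0.061 to 0.97 (the same, smooth muscle-like) and -0.19 to 0.43 (Col5a1 to Col5a2, fibroblast-like).

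Collagen in free RNA from barcodes of at most 50 and at most 10 UMIs was 0.218% and 0.138% in young 1, 0.151% and 0.156% in young 2, 0.208% and 0.198% in old 1, 0.0980% and 0.131% in old 2 and 0.179% and 0.406% in old 4. The median of all genes between ages in smooth muscle-like cells moved from 0.49 to 0.12 without TMM. Cells with at least 1000 UMIs could not be fitted between ages in smooth muscle-like and endothelial-like cells.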

Other observations

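Lymphatic endothelial-like cells, 102 in all and in none of the comparisons, held Col18a1 at 193 CPM, Col4a1 at 159.8 CPM and Col23a1 at 144 CPM. Airway epithelial-like cells held Col4a5 at 91.4 CPM. In free RNA 2 transmembrane collagens differed widely between libraries: Col25a1 was at 161 and 72.1 CPM in young 1 and young 2 and at 34.9, 47.7, 0.866 and 0.261 CPM in old 1 to old 4, and Col23a1 at 171 and 74.8 CPM and at 49.9, 41.4, 5.20 and 5.75 CPM. Both were lower in old 3 and old 4 than in the other 4 libraries.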
